A study of Mus musculus with 6 samples.

Results

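Genes of the interleukin 4 (IL-4) type of alternative macrophage activation were followed in the stroma of tumours grown in Pdia4-/- (KO) and wild-type (WT) mice. The set was fixed as 7 genes, Il4ra, Pparg, Retnla, Chil3, Clec10a, Mgl2 and Tgm2. Every probe set that the platform annotation assigns to 1 of these symbols alone was taken, which gave 14 of the 45101 probe sets on the Affymetrix Mouse430_2 array. Of these, 10 probe sets of 6 genes were tested among 22063 probe sets in all. A probe set was tested when the array software called it Present, that is, above its mismatch background, on at least 3 of the 6 arrays. The others, the single probe set of Mgl2 among them, are given as values only. All 10 had a Present call in both groups, but Pparg met the filter by its 3 KO calls and had 1 WT call.

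The arrays held total RNA of cancer stroma in 3 KO and 3 WT samples of male B6 mice, 1 array per sample, taken 4 weeks after tumour cells were placed under the skin. The KO mice carried the Pdia4 deletion and the WT mice did not, and the labels name no other allele, treatment or age. The growth protocol names LLC, a mouse Lewis lung carcinoma line, and the series design names GK1, and the genotype of the tumour cells is not labelled. Nothing in the labels says whether the samples of a group came from separate mice, littermates or pools, and p-values cover no more than the spread between these 6 arrays.

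The targeted gene Pdia4, an endoplasmic reticulum disulphide isomerase, gave 2324, 1521 and 1402 in KO, against 3942, 2766 and 4104 in WT on probe set 1416497_at. The groups did not overlap (log2 difference, KO minus WT, -1.06, limma's adjusted p = 0.161), but the signal remained Present in KO. The other Pdia4 probe set, 1450620_at, was Present on 0 KO arrays and 1 WT array, at 18.1 to 65.3 in KO and 12.3 to 40.3 in WT, which overlapped. Where the probe sets lie relative to the deletion was not given in the labels, so they check the labels only in part. Present calls numbered 21202 to 22185 per array. KO replicate 3 stood apart, at 105 on the first principal component (50.6% of the variance), against 11.8 and 12.0 on the other KO arrays and -51.0 to -37.1 on the WT arrays, and its column header carries another number prefix than those of the other 5. What this prefix stands for was not given. With 1 array under it, no value within it can be had, and main results are also given without that array.

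IL-4 and IL-13, cytokines of type 2 immunity, act on macrophages through receptors that contain the IL-4 receptor alpha chain, encoded by Il4ra. The signal runs through JAK kinases to the transcription factor STAT6. In mouse macrophages STAT6, together with the lipid-sensing nuclear receptor PPAR gamma, turns on a set of genes that includes the secreted proteins Retnla and Chil3, the galactose-type lectins Clec10a and Mgl2, and the crosslinking enzyme Tgm2. Such genes are widely used as markers of tumour macrophages, but several of them are also made by other cells. Chil3 is abundant in neutrophils and their precursors, Pparg in adipocytes and Tgm2 in endothelial cells and fibroblasts.

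The promoters of the genes are shown first. RefSeq promoters of the build GRCm38.p6 were on hand for 5 of the 7 genes, and the 250 bases before the gene start were searched on both strands. Below, 3 are shown because they set the classical IL-4 targets Retnla and Chil3 beside the receptor gene Il4ra, with STAT motifs in capitals.
Retnla, chr16:48842359-48842608, + strand: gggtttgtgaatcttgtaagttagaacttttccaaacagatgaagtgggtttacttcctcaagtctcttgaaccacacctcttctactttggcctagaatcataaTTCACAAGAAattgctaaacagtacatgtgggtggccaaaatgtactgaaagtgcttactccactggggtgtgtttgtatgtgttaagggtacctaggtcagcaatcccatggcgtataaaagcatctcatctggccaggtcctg
Chil3, chr3:106167565-106167814, - strand: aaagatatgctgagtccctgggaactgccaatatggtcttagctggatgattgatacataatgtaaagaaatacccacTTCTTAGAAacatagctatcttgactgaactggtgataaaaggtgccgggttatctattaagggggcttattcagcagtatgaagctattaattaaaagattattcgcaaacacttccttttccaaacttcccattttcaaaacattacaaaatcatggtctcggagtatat
Il4ra, chr7:125552021-125552270, + strand: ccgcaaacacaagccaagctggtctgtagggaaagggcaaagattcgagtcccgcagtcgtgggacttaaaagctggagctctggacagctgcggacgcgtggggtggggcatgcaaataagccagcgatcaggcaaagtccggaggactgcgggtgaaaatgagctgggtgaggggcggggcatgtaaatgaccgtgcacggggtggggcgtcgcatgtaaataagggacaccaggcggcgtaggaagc
The Retnla promoter held 1 match to TTC and GAA with any 4 bases between them, the spacing that STAT6 prefers, at positions -145 to -136 from the gene start. This motif is in 5.85% of the 32851 promoters searched. A match to TTNNGNAAT, a C/EBP-type motif present in 10.2% of promoters, lay directly beside it at -135 to -127 on the opposite strand, without overlap. A match to GAGGAAGT, a PU.1-type motif present in 2.44% of promoters, lay at -198 to -191. The Chil3 promoter held TTC and GAA with any 3 bases between them, the shorter STAT spacing present in 7.02% of promoters, at -172 to -164, and a C/EBP-type match at -28 to -20. Neither STAT spacing was found in these windows of Il4ra, of Mgl2 or of the 3 Pparg promoters. A match describes letters and does not show binding.

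None of the 10 tested probe sets differed between KO and WT at limma's adjusted p under 0.05 (0 of 10, against 0.0272% of all tested probe sets, 0.0227% with KO higher and 0.00453% with KO lower). The mean log2 signal was higher in KO for 9 of 10, against 46.6% of all tested probe sets. At an unadjusted p under 0.05, 6 of 10 were higher in KO and 0 lower, where 9.99% of all tested probe sets were higher and 10.2% lower. In 4 of 10 every KO array lay above every WT array, against 13.5% of all tested probe sets, and in 0 every KO array lay below, against 17.1%. Together that is 4 of 10 without overlap, against 30.6% of all tested probe sets. The 10 hold 5 probe sets of Tgm2, so the 6 and the 4 both describe 3 genes, Il4ra, Pparg and Tgm2. The median log2 difference, KO minus WT, was 0.83 over the 10 probe sets and -0.045 over all tested probe sets. Without KO replicate 3 the non-overlapping count was also 4 (15.7% of all tested probe sets). Exact permutation p-values below cannot go under 0.1 with 3 arrays against 3. In this bulk tissue, fewer cells of a type and less RNA per cell cannot be told apart.

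The receptor gene Il4ra had higher signals in KO stroma. Its tested probe set, 1421034_a_at, gave 2161, 2213 and 2908 on the KO arrays, against 1500, 1263 and 1170 on the WT arrays. The groups did not overlap, and KO replicate 3 was the highest array. The means were 2427 ± 417 in KO and 1311 ± 170 in WT (SD, n = 3 each), a log2 difference of 0.88 (SE 0.22; limma's adjusted p = 0.153; exact permutation p = 0.1). Without KO replicate 3 the difference was 0.75. The other Il4ra probe sets had too few Present calls to be tested. Probe set 1423996_a_at was called Present on 0 of 6 arrays, at 178 to 319 in KO and 59.2 to 172 in WT. Probe set 1447858_x_at was Present on 2 KO arrays and 0 WT arrays, with overlapping signals of 97.1 to 263 in KO and 72.1 to 176 in WT.

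Pparg encodes PPAR gamma, which in macrophages supports fatty acid uptake and lipid handling. Its probe set 1420715_a_at gave 119, 150 and 143 in KO stroma, against 87.6, 44.1 and 73.8 in WT stroma. All 3 KO arrays were above all 3 WT arrays, but the gene was dim, and it was Present on 3 KO arrays and on 1 WT array. The log2 difference was 1.06 (SE 0.29; limma's adjusted p = 0.164; exact permutation p = 0.1), or 1.02 without KO replicate 3. Adipocyte genes were at the edge of detection. Of 8 adipocyte markers 2 were tested, and their summed signal was 1029 to 1866 in KO and 878 to 1043 in WT, nearly all of it from Fabp4, a fatty acid binding protein that macrophages make too. Adipoq, the adipocyte hormone adiponectin, was Present on 3 KO arrays and 0 WT arrays at 23.4 to 52.4 in KO and 19.1 to 30.4 in WT, and so was tested through its KO calls alone. Lep, Cidec, Adig and Retn were Present on 0 of 6 arrays. The part of adipocyte RNA in the Pparg difference was not tested.

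**Figure D1:**
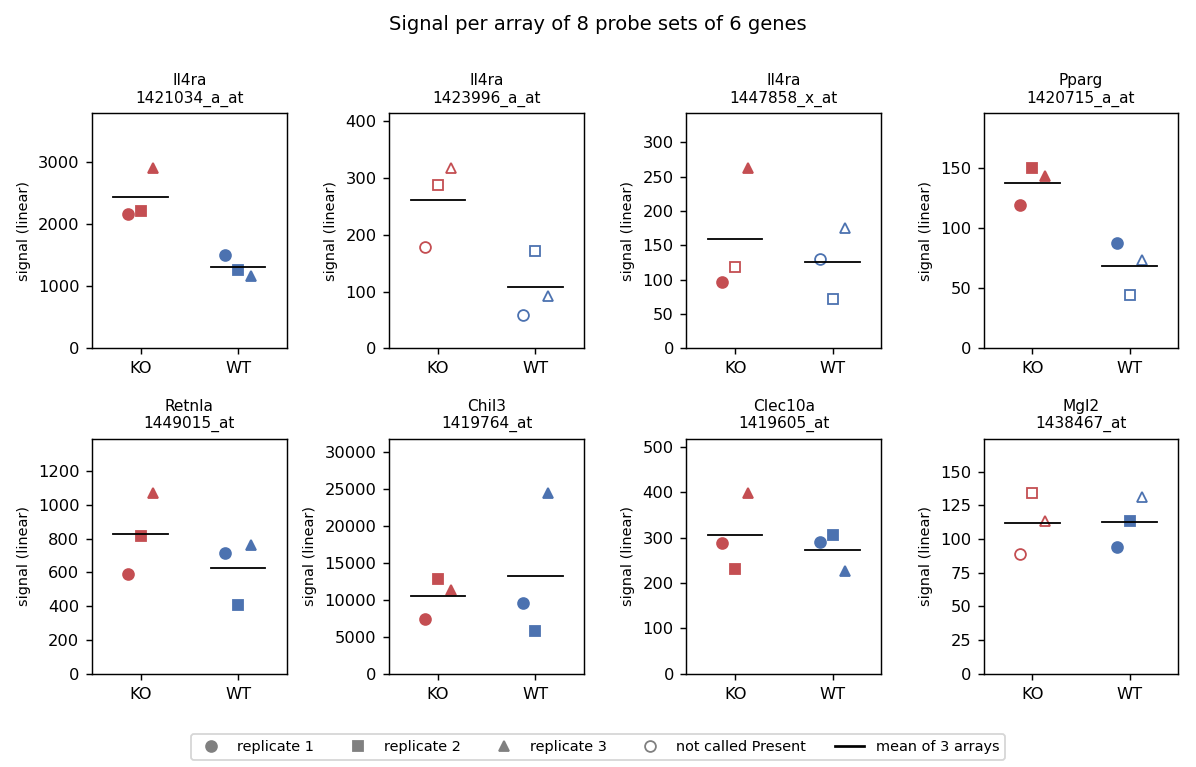
Signal on a linear scale for each array, KO left and WT right, for the 8 probe sets of the genes other than Tgm2, with one panel per probe set and a bar at the mean of 3 arrays. Symbols give the replicate and open symbols an array without a Present call. Il4ra 1421034_a_at, Il4ra 1423996_a_at and Pparg keep the KO arrays above the WT arrays, while Il4ra 1447858_x_at, Retnla, Chil3, Clec10a and Mgl2 overlap.

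Tgm2, or tissue transglutaminase, crosslinks proteins of the matrix and is among the few alternative activation markers shared by mouse and human macrophages. It was measured by 6 probe sets. The probe set 1417500_a_at gave 11810, 10944 and 16252 in KO, against 6221, 5825 and 4123 in WT. The groups did not overlap, and the log2 difference of 1.27 (SE 0.26) was the largest of the tested probe sets of the 7 genes (limma's adjusted p = 0.14; exact permutation p = 0.1). It was 1.10 without KO replicate 3. Probe set 1426004_a_at gave 737, 1162 and 1431 in KO, against 452, 679 and 362 in WT. These groups did not overlap either (log2 difference 1.15, SE 0.34, limma's adjusted p = 0.17).

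The other Tgm2 probe sets gave smaller differences. Those ending in _x_at hold probes that the array's design marks as able to pick up other transcripts. Probe set 1433428_x_at gave 22770, 15995 and 27249 in KO, against 17010, 11770 and 8887 in WT. Here KO replicate 2 lay below WT replicate 1, so the groups overlapped. Over the 3 tested _x_at probe sets the log2 differences were 0.72 to 0.83 with exact permutation p = 0.2 for each, and limma's adjusted p was 0.218 to 0.248. The sixth probe set, 1438942_x_at, was Present on 0 arrays.

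Within an array, 1417500_a_at could be set against the _x_at probe sets of the same gene. The log2 ratio of 1417500_a_at over 1433428_x_at averaged -0.75 ± 0.20 in KO and -1.19 ± 0.23 in WT (SD, n = 3 each). All KO arrays lay above all WT arrays in this ratio, with a difference of 0.44 and an exact permutation p of 0.1. Over 1437277_x_at the ratio averaged -0.55 ± 0.22 in KO and -1.10 ± 0.27 in WT, also without overlap (difference 0.55, exact permutation p = 0.1). Over 1455900_x_at it averaged -0.16 ± 0.27 in KO and -0.60 ± 0.45 in WT, and there the groups overlapped (difference 0.44, exact permutation p = 0.3). WT replicate 1, the WT array highest on the _x_at probe sets, also had the highest 3' to 5' signal ratio of the β-actin controls, a measure of RNA integrity and labelling, at 4.26. This ratio was 1.51 to 1.99 on the KO arrays and 1.66 to 4.26 on the WT arrays. Its part in the Tgm2 values was not tested.

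Endothelial cells are another known source of Tgm2. Of 8 endothelial markers 7 were tested and 6 were higher in KO, with a summed signal of 1327 to 1592 in KO and 793 to 1111 in WT. Without overlap 3 were higher, against 13.5% of all tested probe sets. These counts include Pecam1 and Tie1, which entered the test through their KO calls alone. Pecam1, an endothelial adhesion molecule, was Present on 3 KO arrays and 0 WT arrays and was 3.69-fold higher in KO (limma's adjusted p = 0.159). That fold compares means of log2 signals, and with no WT array Present its size is uncertain. Cldn5, a tight junction protein, and Cdh5, VE-cadherin, had log2 differences of 1.20 and 0.74. Of 8 fibroblast markers 3 were higher and 5 lower, with a summed signal of 40735 to 55239 in KO and 64350 to 66934 in WT. Most of that sum is Col3a1, a fibrillar collagen, at 26383 to 39391 in KO and 42094 to 49992 in WT. The markers were split, with 4 lower and 2 higher in KO without overlap, against 17.1% and 13.5% of all tested probe sets. The 4 lower were Pdgfra, Dcn, Dpt and Col3a1 at log2 differences of -1.13, -1.08, -0.94 and -0.58. The 2 higher were the collagen genes Col1a1 and Col1a2 at 1.70 and 1.27. Col1a2 was 7402 on KO replicate 3, against 2455 and 1478 on the other KO arrays. The part of either cell type in the Tgm2 difference was not tested.

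**Figure D2:**
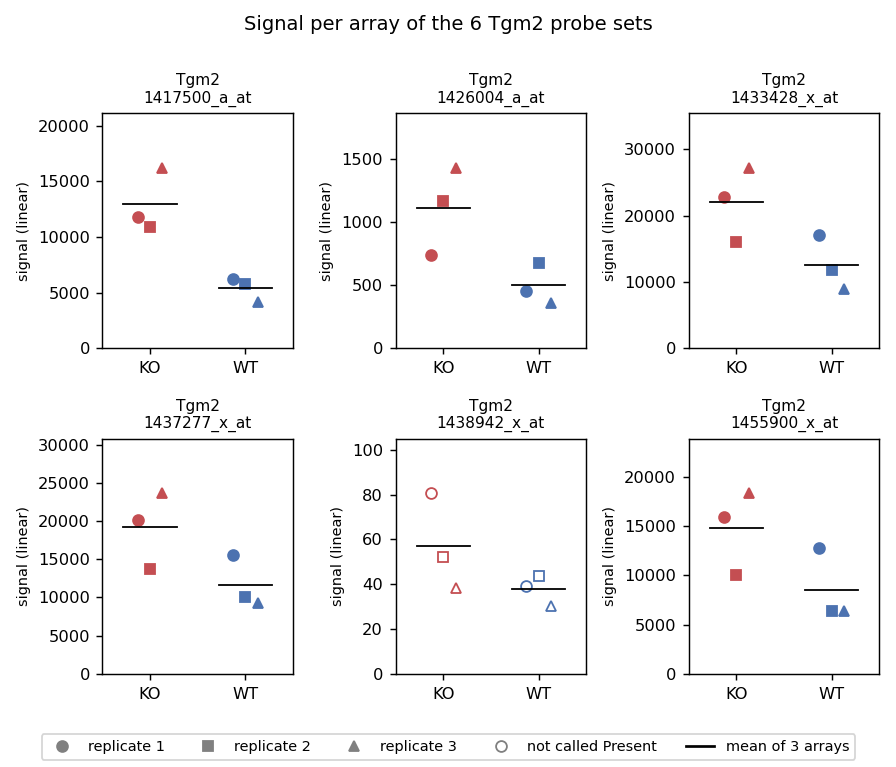
Signal on a linear scale for each array, KO left and WT right, for the 6 Tgm2 probe sets, with a bar at the mean of 3 arrays, the replicate by symbol and open symbols where the call was not Present. The groups are apart on 1417500_a_at and 1426004_a_at and overlap on the 4 probe sets ending in _x_at, where KO replicate 2 is the low KO array on the 3 bright ones.

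Retnla, also called FIZZ1 or RELM alpha, is a secreted cysteine-rich protein and the classical IL-4 target of mouse macrophages. Its probe set 1449015_at gave 593, 816 and 1069 in KO, against 712, 405 and 764 in WT. The groups overlapped, with 2 WT arrays above KO replicate 1. The means were 826 ± 238 in KO and 627 ± 194 in WT (SD, n = 3 each), and the log2 difference of 0.41 (SE 0.33) was within the spread between arrays (limma's adjusted p = 0.483; exact permutation p = 0.4). It was 0.20 without KO replicate 3 and 0.12 without WT replicate 2, the WT array with the lowest signal.

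Chil3, or Ym1, is a secreted chitinase-like protein without chitinase activity. Its probe set 1419764_at gave 7429, 12836 and 11392 in KO, against 9617, 5762 and 24465 in WT. The lowest and the highest of the 6 arrays were both WT, 4.25-fold apart. The log2 difference was -0.11 (SE 0.51; limma's adjusted p = 0.919; exact permutation p = 1.0), so no difference could be told from the spread. Its sign depended on single arrays. It was 0.47 without WT replicate 3 and 0.13 without KO replicate 1.

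Within each group, the array highest for Chil3 was also the highest for neutrophil precursor genes. Ngp, a granule protein of neutrophil precursors, gave 8394, 40685 and 19159 in KO, against 1154, 1055 and 51535 in WT. Mpo, the myeloperoxidase of primary granules, gave 437, 8341 and 335 in KO, against 84.9, 12.0 and 7787 in WT. KO replicate 2 and WT replicate 3 were the highest array of their group for both genes and for Chil3. Across the groups the order differed, as WT replicate 1 lay above KO replicate 1 for Chil3 and below it for Ngp and Mpo. Of 8 precursor markers 7 were tested, and their summed signal was 25159 to 132156 in KO and 3942 to 139116 in WT. Lcn2, Ngp and Ltf, all granule genes, had log2 differences of 2.08, 2.23 and 2.20 with limma's adjusted p of 0.264 to 0.424 and overlapping groups. Leaving out KO replicate 2 and WT replicate 3 gave Chil3 a log2 difference of 0.31 (limma's adjusted p = 0.712), and the part of neutrophil precursors in the Chil3 signal was not tested.

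**Figure D3:**
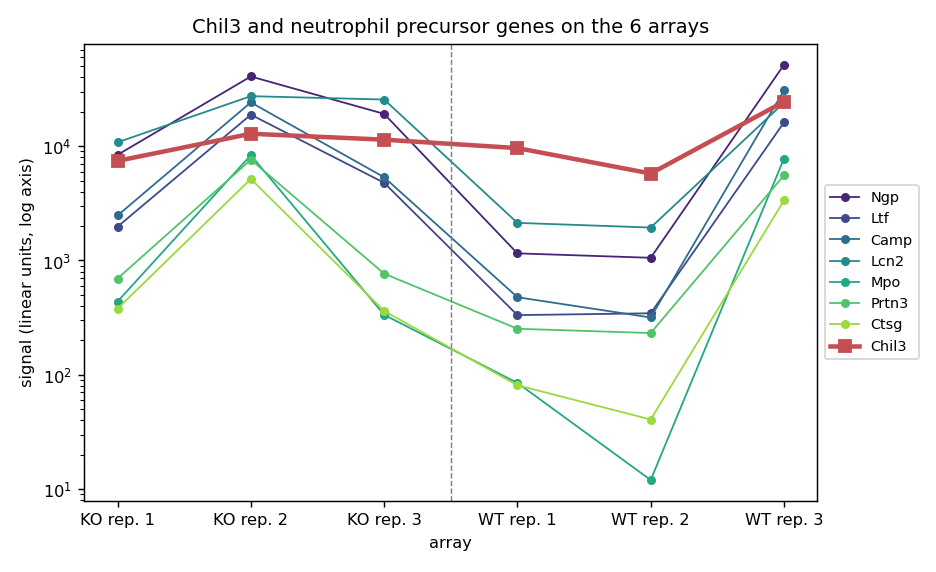
Signal on a log axis of Chil3 (thick red line, squares) and of the 7 tested neutrophil precursor genes on the 6 arrays, KO arrays left of the dashed line and WT arrays right of it. Chil3 and all 7 precursor genes are highest on KO replicate 2 within KO and on WT replicate 3 within WT. Heights of different probe sets are not comparable with each other.

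Clec10a and Mgl2 encode the mouse macrophage galactose-type lectins, which bind terminal galactose and N-acetylgalactosamine and are made by macrophages and some dendritic cells. The genes are close relatives, and the array files' own descriptions put their probe sets into the same transcript cluster, so signal shared between them cannot be told apart. The Clec10a probe set 1419605_at gave 289, 230 and 398 in KO, against 290, 305 and 226 in WT. The groups overlapped, with KO replicate 3 the highest array and WT replicate 3 the lowest. The log2 difference was 0.14 (SE 0.26; limma's adjusted p = 0.784; exact permutation p = 0.7) and -0.073 without KO replicate 3. Mgl2 was near background. Its probe set 1438467_at gave 88.7, 134 and 114 in KO, Present on 0 arrays, against 94.1, 114 and 131 in WT, Present on 2 arrays. Of 9 dendritic cell markers 5 were tested and 4 were higher in KO. Itgax, the CD11c integrin, had a log2 difference of 1.44, and Batf3, a transcription factor of a dendritic cell subset, had 0.91. These 2 were higher without overlap, against 13.5% of all tested probe sets. Irf4, another transcription factor, had 1.67 with overlap (limma's adjusted p = 0.256) and was Present on 2 KO arrays and 1 WT array. Flt3, a growth factor receptor, was the lower marker at -0.31. The summed signal of the 5 was 4229 to 4839 in KO and 1945 to 2250 in WT, most of it from Itgax, and the part of these cells was not tested.

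Macrophages themselves were well represented. Of 15 general macrophage markers 14 had a tested probe set, and all 14 were Present on all 6 arrays. In KO 11 were higher and 3 lower, and 0 passed limma's adjusted p. At an unadjusted p under 0.05 there were 5 higher and 0 lower, against 9.99% and 10.2% of all tested probe sets. The median log2 difference was 0.50, and 0.28 without KO replicate 3. The summed signal was 187847 to 283208 in KO and 161451 to 199269 in WT. Itgam, the CD11b integrin, Aif1, a cytoplasmic protein of macrophages, and Cd68, a lysosomal glycoprotein, had log2 differences of 1.24, 1.11 and 0.74. Adgre1 and Csf1r had 0.070 and 0.20. The 3 lower markers, Mertk, Lyz2 and Cd163, had -0.12, -0.17 and -0.52, and all of these overlapped.

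Because the mean marker signal was higher in KO, each gene of the set was also expressed relative to the mean log2 signal of those 14 markers on the same array. That mean was 0.41 higher in KO, and each relative difference is the gene's own difference less this value. The 14 include Mrc1 and Cd163, which are also on the list of alternative activation genes below, so the values depend on the markers chosen. Il4ra stood at -1.67 ± 0.089 in KO and -2.14 ± 0.031 in WT on this relative log2 scale (SD, n = 3 each). The relative difference was 0.47 with no overlap between the groups (exact permutation p = 0.1), and it was 0.43 to 0.51 when any single array was left out. Pparg had a relative difference of 0.64 and did not overlap, though KO replicate 3 at -6.10 lay just above WT replicate 3 at -6.14. Leaving out WT replicate 2 brought the Pparg value to 0.37, and with 16 added to each signal it was 0.48 with overlap (exact permutation p = 0.2). Tgm2, by its brightest probe set 1433428_x_at, had 0.42 with overlap (exact permutation p = 0.2). That probe set can pick up other transcripts. The relative level was not taken for 1417500_a_at, so this value covers 1433428_x_at alone and does not describe Tgm2 as a whole. The own log2 difference of 1417500_a_at was 1.27 without overlap, against 0.83 for 1433428_x_at and 0.41 for the marker mean.

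The secreted proteins and the lectin had other values. Retnla averaged -3.25 ± 0.27 in KO and -3.25 ± 0.52 in WT, with overlapping arrays (exact permutation p = 1.0). Chil3 stood at 0.43 ± 0.46 in KO and 0.95 ± 1.15 in WT, a relative difference of -0.52 that became 0.12 without WT replicate 3. Clec10a was lower relative to the markers, at -4.68 ± 0.14 in KO and -4.40 ± 0.17 in WT, with no overlap and a difference of -0.28 (exact permutation p = 0.1). After quantile normalization the Clec10a difference was -0.20 and the groups overlapped (exact permutation p = 0.6). With the median of the markers in place of their mean, the relative differences were 0.27 for Il4ra and -0.48 for Clec10a, both without overlap, and 0.44 for Pparg with overlap (exact permutation p = 0.5).

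**Figure D4:**
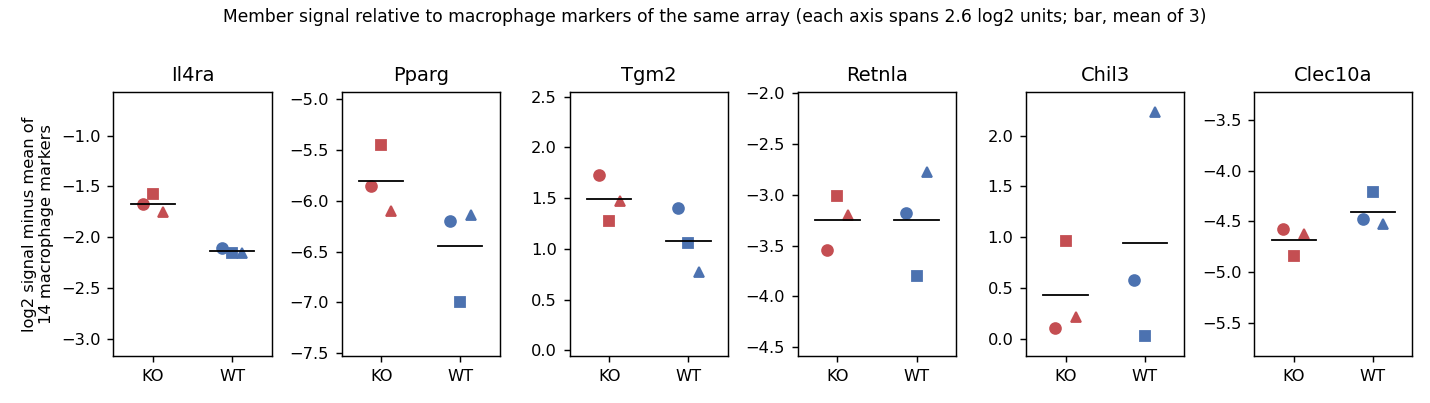
Log2 signal of each tested gene (for Tgm2, probe set 1433428_x_at) minus the mean log2 signal of 14 macrophage markers on the same array, KO left and WT right, with a bar at the mean of 3 arrays and circle, square and triangle for replicates 1, 2 and 3. Il4ra and Pparg keep the KO arrays above the WT arrays, Clec10a keeps them below, and Tgm2, Retnla and Chil3 overlap.

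The cytokines that start this pathway were at or below detection. Il4 gave 33.0, 19.0 and 103 in KO, Present on KO replicate 3 alone, against 3.3, 18.6 and 29.3 in WT, Present on 0 arrays. Il13 was Present on 0 of 6 arrays, at 6.4 to 12.1 in KO and 8.3 to 10.3 in WT. Of 7 markers of type 2 lymphocytes 1 was tested, the nuclear receptor gene Rora with a log2 difference of 0.026, and Gata3, the T helper 2 transcription factor, and Il5 were Present on 0 arrays. Other cytokines known to raise Il4ra or alternative activation genes in macrophages were measurable. Il10 gave 376, 378 and 3415 in KO, against 108, 77.1 and 88.8 in WT, and Il6 gave 443, 385 and 3907 in KO, against 139, 135 and 168 in WT. Neither overlapped, and in both KO replicate 3 was far above the other KO arrays (log2 differences 3.12 and 2.58, limma's adjusted p = 0.159 and 0.181). Il33, an epithelial and stromal alarmin, had 0.25 with overlapping groups. These 3 were the tested genes of a list of 8, and their part in the values of Il4ra or the other members was not tested.

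Among receptor chains, Il13ra1, which pairs with the Il4ra product in the receptor shared by IL-4 and IL-13, resembled Il4ra in direction. Its probe set 1427164_at gave 1787, 1246 and 3201 in KO, against 1198, 621 and 741 in WT, with a log2 difference of 1.23 (SE 0.40; limma's adjusted p = 0.185). The groups did not overlap on 3 of its 4 tested probe sets, where the differences were 1.09 to 1.23, and overlapped on 1454783_at, at 0.57. These probe sets measure 1 gene, and 13.5% of all tested probe sets were higher in KO without overlap. Stat6 gave 5120, 4740 and 6932 in KO, against 5181, 4092 and 3773 in WT on 1426353_at, which overlapped (log2 difference 0.36, limma's adjusted p = 0.404). Its other probe set, 1421708_a_at, had 0.93 and also overlapped. Il2rg, the common gamma chain, had no probe set with its symbol alone.

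Over this list of 18 receptor and signalling genes 16 were tested. In KO 13 were higher and 3 lower, and 0 passed. Without overlap 5 were higher and 1 lower, against 13.5% and 17.1% of all tested probe sets. At an unadjusted p under 0.05, 4 were higher and 1 lower, against 9.99% and 10.2%. The median was 0.42. Il10ra, the interleukin 10 receptor, had the smallest p with a log2 difference of 1.43 (limma's adjusted p = 0.135), and Ptpn6, the phosphatase SHP-1 that dampens cytokine signals, had 0.63. The gene lower without overlap was Irs1, at 546, 483 and 163 in KO, against 981, 874 and 724 in WT (log2 difference -1.28, limma's adjusted p = 0.201).

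Other genes linked to alternative activation were split. Of a list of 30, 24 were tested, 18 higher and 6 lower in KO. Without overlap 7 were higher and 2 lower, against 13.5% and 17.1% of all tested probe sets. The 24 include Alox15 and Ccl24, a chemokine, which entered the test through the calls of 1 group alone. The median was 0.49, and 0.20 without KO replicate 3. Arg1, the arginine-degrading enzyme most often read beside Retnla and Chil3, gave 16870, 16053 and 32354 in KO, against 12743, 19776 and 13886 in WT. These overlapped (log2 difference 0.44, SE 0.33, limma's adjusted p = 0.451). Mrc1, the mannose receptor CD206, gave 6914, 6235 and 8469 in KO, against 6929, 5970 and 4871 in WT, which also overlapped (0.29, limma's adjusted p = 0.482).

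A single gene of that list passed, and it was lower. Alox15, a lipoxygenase that IL-4 and IL-13 induce strongly in human monocytes, gave 11.8, 18.0 and 17.2 in KO, Present on 0 arrays, against 105, 126 and 83.1 in WT, Present on 3. The log2 difference was -2.74, or 6.69-fold lower in KO (limma's adjusted p = 0.0479). That fold compares means of log2 signals, and with no KO array Present its size is uncertain. Alox15 entered the test through its WT calls alone. The call was lost when any single array was left out. It was also lost with percentile scaling, after quantile normalization, with no filter and with the replicate number as a block. With log2(signal + 16), array weights or trend and robust, 1, 2 and 4 genes over all lists passed, and which ones is not given. Ccl8, a monocyte and T cell chemokine, and Il1rn, the interleukin 1 receptor antagonist, had log2 differences of 1.34 and 2.27 (limma's adjusted p = 0.131 and 0.135).

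PPAR gamma partners and targets varied from gene to gene. Of 20 genes 17 were tested, 13 higher and 4 lower in KO. The median was 0.29, against 0.50 for the macrophage markers. Without overlap 5 were higher and 1 lower, against 13.5% and 17.1% of all tested probe sets. Lpl, lipoprotein lipase, gave 2112, 1565 and 1819 in KO, against 668, 520 and 429 in WT (log2 difference 1.78, SE 0.24, limma's adjusted p = 0.107). Abcg1, a cholesterol exporter, and Fabp5, a fatty acid binding protein, had 0.98 and 1.02 without overlap. Cd36, the fatty acid scavenger receptor often read as a PPAR gamma target, gave 939, 1218 and 1116 in KO, against 1007, 754 and 926 in WT, which overlapped (0.29, limma's adjusted p = 0.454). The heterodimer partner Rxra had 0.11. The 4 lower genes were Med1 at -0.71 without overlap, and Acadl, Angptl4 and Ncoa1 at -0.56, -0.20 and -0.048 with overlap.

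Relatives of the members were mostly undetected. Of 11 resistin-like, chitinase-like and transglutaminase genes 3 were tested, and all 3 were higher in KO. Chil1, the chitinase-like protein also called BRP-39, had a log2 difference of 1.73 and Tgm1, the keratinocyte transglutaminase, 1.58, both without overlap (limma's adjusted p = 0.148 and 0.14). Over all tested probe sets 13.5% were higher in KO without overlap. F13a1, the coagulation factor XIII subunit that is itself an alternative activation marker, had 0.53 with overlap. Chil4 (Ym2), a near-identical relative of Chil3, was Present on 0 of 6 arrays, and signal of either gene on the other's probes cannot be told apart.

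Inflammatory macrophage genes, which IL-4 tends to restrain, were higher in KO on the same arrays. Of 16 genes 10 were tested, all 10 were higher and 9 did not overlap, where 13.5% of all tested probe sets were higher without overlap. The median was 1.64, and 1.21 without KO replicate 3. Cxcl9, an interferon-induced chemokine, Il1b, interleukin 1 beta, and Irf1, an interferon-induced factor, had log2 differences of 2.34, 1.66 and 1.51. In the list 0 passed limma's adjusted p. At an unadjusted p under 0.05 there were 9 higher and 0 lower, against 9.99% and 10.2% of all tested probe sets. Nos2, the inducible nitric oxide synthase set against Arg1 in macrophage typing, was Present on 0 arrays.

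Genes whose signals followed each member most closely over the 6 arrays were found by the root mean square difference between mean-centred log2 signals, among 19033 tested probe sets with 1 symbol. For Il4ra they were Abcg1 and Tmod3, an actin-capping protein, at 0.058 and 0.060. For Pparg they were Slco3a1, an organic anion transporter, at 0.12 and Myo1f, a leukocyte myosin, at 0.13. Tgm2 (1433428_x_at) had Msr1, a macrophage scavenger receptor, at 0.072 and Ccl12, a monocyte chemokine, at 0.11. Chil3 had Ms4a6c at 0.16 and Lax1, a lymphocyte adaptor, at 0.17. Retnla had Rffl, a ubiquitin ligase, and Plxna2, a semaphorin receptor, at 0.077 and 0.086, and Clec10a had Gramd3 and Dennd1a at 0.061 and 0.068. With 6 arrays and so many candidates, near matches are a description of these arrays.

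The remaining marker lists gave 0 calls. T cell markers were higher in 5 of 5 tested genes (5 at an unadjusted p under 0.05), neutrophil markers in 6 of 6 (4, with Cxcr2 among them tested through its KO calls alone), mast cell and basophil markers in 6 of 6 (1) and eosinophil markers in 2 of 2 (1). Of 3 tested epithelial markers 2 were lower in KO without overlap (2 at an unadjusted p under 0.05). Over all tested probe sets 9.99% were higher and 10.2% lower at that p, and 17.1% were lower without overlap. The authors' deposited table of 1554 probe sets held 0 of the 14 probe sets.

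**Figure D5:**
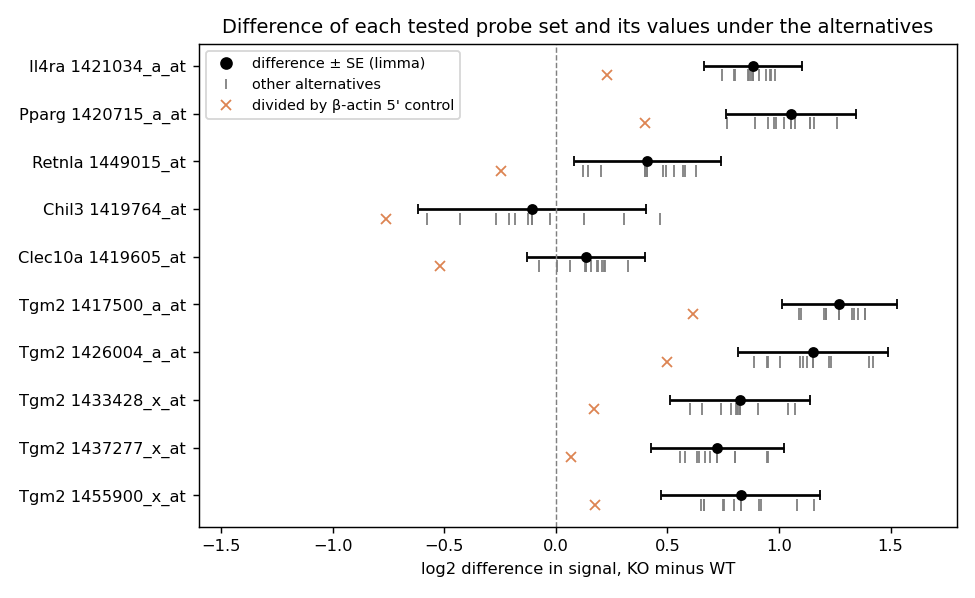
Log2 difference in signal, KO minus WT, of the 10 tested probe sets (black point with limma's SE). Grey ticks below each point are the values under the other alternatives, and the orange cross is the value with each array divided by its β-actin 5' signal, a scaling under which all tested probe sets had a median of -0.70. Il4ra, Pparg and the Tgm2 probe sets stay above 0 throughout, while Chil3 and Clec10a lie on both sides. Retnla is below 0 under the β-actin division alone, which moves all probe sets by the same amount.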

How the data were processed

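Total RNA of tumour stroma from each sample went on 1 Mouse430_2 array. The deposited array files hold, for every probe set, an intensity on a linear scale with its detection call. An expression report that the authors deposited (for 1 array) names the Statistical algorithm, a target value of 500 and call settings alpha1 0.05, alpha2 0.065 and tau 0.015, with the software version unnamed. The authors' value table equals the array files in 270606 of 270606 cells at 1 decimal. The deposited fold score table has a signed fold whose making no header or label states, and it held none of the probe sets studied.

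The log2 of the deposited intensity was tested without a pseudocount or further normalization, since the signals were already scaled. The 64 control probe sets were left out. The contrast was KO minus WT, fitted by limma 3.58.1 (R 4.3.3; lmFit, then eBayes; two-sided, no covariates) over 22063 probe sets, with Benjamini-Hochberg adjustment over all of them and a threshold of 0.05. The script was tested on simulated data. Exact permutation tests over arrays were two-sided. A gene in a list stood for its tested probe set with the highest mean. Symbols came from the platform annotation, and all 14 probe sets kept their symbol when matched by Entrez ID to RefSeq.

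Named genes are the 7 members, Il4, Il13, Stat6, Il13ra1, Il2rg, Arg1 and Mrc1, the 3 list genes of smallest p, any that passed, and the 2 closest profiles. Genes of cell type lists were named only beside a member or as macrophage markers. Fabp4, Ccl24, Tie1, Cxcr2, Flt3, Col1a1, Col1a2, Col3a1, Cd36, Rxra, Chil4, Nos2, Mpo and undetected genes were added after their values were seen. So were Adgre1, Csf1r, Mertk, Lyz2, Cd163, Irs1, Med1, Acadl, Angptl4, Ncoa1, Pdgfra, Dcn and Dpt. Members and lists were chosen with earlier results of these data known. Same-numbered KO and WT arrays did not deviate together, so numbers were not taken as pairs. The number of arrays limits the precision.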

Additional observations from a re-analysis of the deposited data

How the results depend on the processing

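Over 17 alternatives (16 for Pparg, which was not Present on all 6 arrays) 0 of the 10 probe sets passed limma's adjusted p. The smallest was 0.0707, for Tgm2 1417500_a_at under eBayes with trend and robust, and each probe set's differences for Il4ra, Pparg and Tgm2 stayed above 0. Division by the β-actin 5' control moved the median of all tested probe sets to -0.70 and gave Il4ra 0.23, Pparg 0.40, Tgm2 0.068 to 0.62, Retnla -0.24 and Clec10a -0.52. Chil3 turned to 0.31 without KO replicate 2 and WT replicate 3, an alternative chosen after seeing the data, and ranged from -0.58 to 0.47 when single arrays were left out. Clec10a ranged from -0.073 (without KO replicate 3) to 0.32 in the same way. The β-actin division moves the difference of every probe set by the same amount, so the negative Retnla and Clec10a values there come with that scaling. The cause of the turns with arrays left out was not tested. Relative to macrophage markers, Retnla turned to 0.075 after quantile normalization and ranged from -0.28 to 0.24 over single arrays left out, and Chil3 from -0.98 to 0.12. The groups came to overlap for Clec10a after quantile normalization, and for Pparg with log2(signal + 16) and with the marker median. Calls over all probe sets numbered 6 and over the listed genes 1. They became 1 and 0 with 75th percentile scaling, 0 and 0 after quantile normalization, 1135 and 14 after division by β-actin, and 0 and 0 with no filter. They were 0 and 0 with Present calls on all 6 arrays, 27 and 4 with trend and robust, 19 and 2 with array weights and 11 with log2(signal + 16). Leaving out single arrays gave 0 to 2 calls over all probe sets and 0 over the listed genes. With limma and the replicate number as a block, 0 and 0 were called, with 4716 probe sets at an unadjusted p under 0.05. Deviations of same-numbered arrays correlated across probe sets at 0.16, 0.025 and -0.10, and not every array matched its own number best, so the block is no test of pairing.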
